A study of Homo sapiens and Canis lupus familiaris with 27 samples.

Results

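PC-3 cells exposed to the indolylmaleimide PDA-66 for 24 h were compared with PC-3 cells given only its solvent. PC-3 is an androgen-independent human prostate adenocarcinoma cell line from a bone marrow metastasis, and all samples come from this 1 line, which limits how far the values extend to other cells. The treated cells received PDA-66 at 15 µM and the controls DMSO at 0.15% (v/v), both over 24 h. After 24 h of PDA-66 there were 3 samples (replicates 1, 2 and 3), described as independent biological replicates in the study's methods. Of the controls 2 samples were used (replicates 2 and 3), as the study had set a further control aside as an outlier and that library was not analysed here. These 5 samples are part of 27 in the whole series. A further PC-3 group of 3 samples, taken 12 h after the same dose, entered the same statistical fit and is compared with the 24 h group at the end.

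PDA-66 has been described as a compound that depolymerizes microtubules, the tubulin filaments that form the mitotic spindle. In dividing cells, a damaged spindle keeps the spindle assembly checkpoint active, a signal from kinetochores that are not attached to microtubules, and cells then stay in mitosis. Such cells either die in mitosis or leave it without dividing and become cells with several nuclei or a doubled genome. Genes for DNA replication and for mitosis are transcribed in waves along the cell cycle, so that their levels in a bulk sample follow both transcription and the share of cells in each phase.

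Total counts were between 14650839 and 16326495 after 24 h of PDA-66, and 15497248 and 15275005 in the controls. The table lists 23708 genes, of which 13777 passed the filter on low counts and were tested. The leading log2 fold change distance, taken over the 500 genes that differ most within a pair of samples, was 1.35 between the controls, 0.925 to 1.08 between the PDA-66 samples and 2.20 to 2.44 between a control and a PDA-66 sample. The controls were thus farther apart than the treated samples, though less far than the groups. Among 9853 genes with a mean of at least 10 CPM, 99 differed at least 2-fold between the controls, compared with 0 to 5 between pairs of PDA-66 samples. CPM are the read counts of a gene relative to the total of its library after TMM scaling, which makes libraries of different depth comparable. They are not divided by gene length, so levels are compared between samples and not between genes. Epithelial keratins and the prostate homeobox gene HOXB13 were expressed, with KRT8 at 128 to 196 CPM, KRT19 at 350 to 512 CPM and HOXB13 at 408 to 811 CPM over the 5 samples. Of 10 genes listed as expressed in PC-3, these among them, 9 passed the filter, together at 3320 to 4884 CPM per sample. CDH1, E-cadherin, is also listed and was at low CPM, given below. At an adjusted p under 0.001, 4 of the 9 were lower with PDA-66 and 0 higher, compared with 10.5% lower of all genes tested. KLK2 and KLK3, kallikreins of the luminal prostate, had 0 counts in the 5 samples. Of 7 genes listed as absent from PC-3, these among them, 3 passed the filter, together at 14.7 to 21.4 CPM per sample. Some markers of other cells were at or near 0 (THY1, CD3E, HBB and HBA1 at 0 counts, CDH5 at 0 to 4 counts). CD68 and KDR were measured at 65.1 to 134 CPM and 38.6 to 163 CPM. Of the markers listed, 3 of 6 for fibroblasts, 2 of 6 for blood and 2 of 5 for endothelium passed the filter. Those that passed were together at 2.93 to 7.58, 66.2 to 134 and 46.3 to 176 CPM per sample. Fewer cells of one kind and less RNA per cell cannot be told apart in bulk samples.

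After 24 h, 2665 genes were differentially expressed (DEGs, adjusted p under 0.001 in edgeR's quasi-likelihood test), which is 19.3% of the genes tested. Of these, 1223 were higher with PDA-66 (8.88%) and 1442 were lower (10.5%). The change was at least 2-fold for 488 of the higher and 734 of the lower DEGs, and at least 4-fold for 84 and 151. The median log2 fold change over all genes tested was -0.01. For 61.9% of all genes tested, the controls and the PDA-66 samples did not overlap, so that a lack of overlap alone is common here. With library sizes alone in place of TMM, the median of all genes was 0.07 and the split was 1578 higher and 1151 lower, whereas the medians of the gene groups described here kept their direction, apart from those between -0.07 and 0.00, which then lay above 0. With only the 2 groups in the fit, 727 were higher and 937 lower. Leaving out PDA-66 replicate 2 gave 706 and 845, and leaving out PDA-66 replicate 1 gave 821 and 925.

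**Figure D1:**
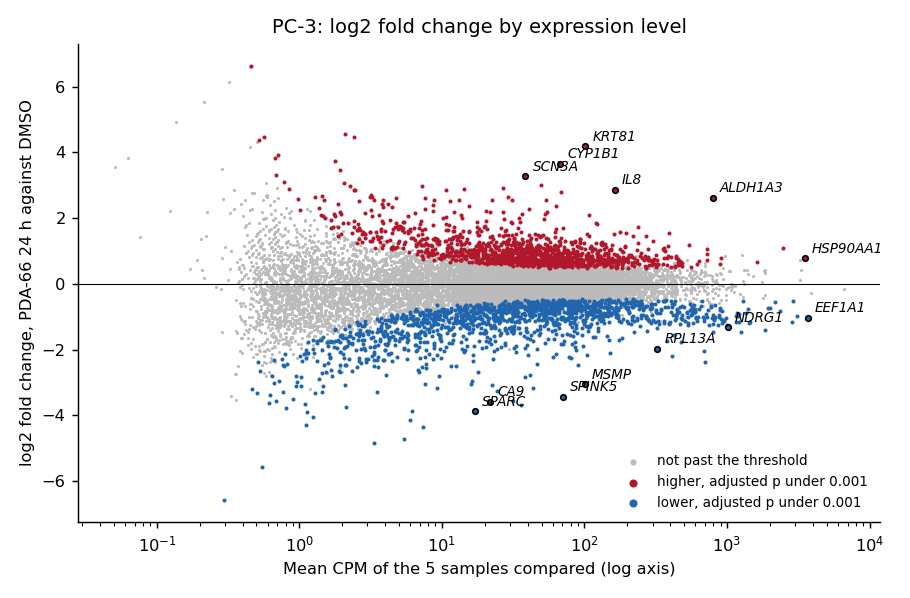
Log2 fold change of PDA-66 24 h against DMSO for the 13777 genes tested, plotted against their mean CPM over the 5 samples on a log axis. Red points are the 1223 genes that were higher and blue points the 1442 that were lower at an adjusted p under 0.001, grey points did not pass, and rings mark named genes such as KRT81 (4.18) and SPARC (-3.87).

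At either end of the fold changes, 15 DEGs are named, chosen among those whose groups did not overlap and whose mean over the 5 samples reached 10 CPM. Values are given for DMSO replicates 2 and 3 and then for PDA-66 replicates 1, 2 and 3, with the standard error (SE) of the log2 fold change. KRT81 (chr12:52679697-52685318 in GRCh37), which encodes a hard keratin of hair, was at 10.7 and 7.11 CPM in the controls and at 141, 154 and 192 CPM after PDA-66. All PDA-66 samples lay far above both controls, a log2 fold change of 4.18 (SE 0.19, adjusted p = 1.53e-08). KRT81 has close paralogs, and the treatment of reads matching more than 1 gene is not given in the sources used here. CYP1B1 (chr2:38294116-38337044 in GRCh37), a cytochrome P450 enzyme and a classical target of the aryl hydrocarbon receptor, rose from 11.4 and 5.43 CPM to 111, 109 and 98.8 CPM. Its log2 fold change was 3.66 (SE 0.21, adjusted p = 7.27e-08), and 4.30 without DMSO replicate 2. SCN3A, a voltage-gated sodium channel subunit, was at 4.59 and 7.78 CPM in the controls and at 57.5, 61.5 and 60.7 CPM after PDA-66, with a narrow spread among the treated samples. The actin crosslinker FLNC followed with a log2 fold change of 3.00, the serpin SERPINB7 with 2.91, the RhoGAP DLC1 with 2.88 and LRRC38 with 2.87. FLNC rose by 3.71 without DMSO replicate 2.

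Genes of secreted and surface proteins stood among the others. IL8, the neutrophil chemokine interleukin 8, was at 30.6 and 37.5 CPM in the controls and at 254, 262 and 230.2 CPM after PDA-66, which is a log2 fold change of 2.87 (SE 0.13, adjusted p = 1.55e-08). COL12A1, a collagen of the matrix, rose by 2.79 (3.43 without DMSO replicate 2), and the growth factor gene FGF5 by 2.56. ALDH1A3, which makes retinoic acid, had the highest counts of these genes, with 229 and 159 CPM in the controls and 1211, 1189 and 1176 CPM after PDA-66. The DNA-binding inhibitor ID3 (2.66), the phosphatase UBASH3B (2.57), the keratin KRT80 (2.57) and the aminopeptidase ANPEP (2.56) complete the 15. In each of the 15 genes, the lowest PDA-66 sample was above the highest control, as the rule required.

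SPARC (chr5:151040657-151066536 in GRCh37), a secreted collagen-binding glycoprotein, had the lowest log2 fold change of the 15 lower genes. SPARC was at 44.3 and 33.1 CPM in the controls and at 2.37, 2.87 and 2.71 CPM after PDA-66, a log2 fold change of -3.87 (SE 0.18, adjusted p = 1.55e-08). CA9 (chr9:35673925-35681156 in GRCh37), carbonic anhydrase IX and a standard marker of hypoxia, fell from 42.9 and 53.5 CPM to 3.91, 3.85 and 4.33 CPM. Its log2 fold change was -3.58 (SE 0.14, adjusted p = 9.23e-09). The lncRNA MIR210HG, host of the hypoxia-regulated miR-210, fell by 3.25 on the log2 scale, from 58.3 and 47.6 CPM to 5.28, 5.07 and 6.43 CPM. CP, the copper-carrying ferroxidase ceruloplasmin, fell by 3.55 and the protease inhibitor SPINK5 by 3.43. FCGBP, a mucin-like secreted protein, differed more between the controls (122 and 37.4 CPM) than among the PDA-66 samples (5.16, 6.66 and 6.97 CPM). Its log2 fold change was -3.68, -2.57 without DMSO replicate 2 and -4.28 without DMSO replicate 3.

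KRT20, a keratin of intestinal epithelium, was at 74.0 and 113 CPM in the controls and at 9.78, 10.1 and 11.6 CPM after PDA-66, a log2 fold change of -3.16. CEACAM5, the carcinoembryonic antigen, fell by 2.77 and the sulfotransferase SULT1C2 by 2.96. The axonemal dynein DNAH7 and the transcription factor TFEC both fell by 3.06, and the growth factor gene BMP3 changed by -2.83. TSPEAR fell by 2.67 and the secretory pathway pseudokinase FAM20A by 2.50. MSMP had a log2 fold change of -3.04, but RGP1 on the opposite strand covers 100% of its annotated exon bases, and whether counting used the strand is not given in the sources used here. For CA9 and CP, the share of exon bases that an opposite gene covers was 35.7% (ARHGEF39) and 20.1% (HPS3).

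**Figure D2:**
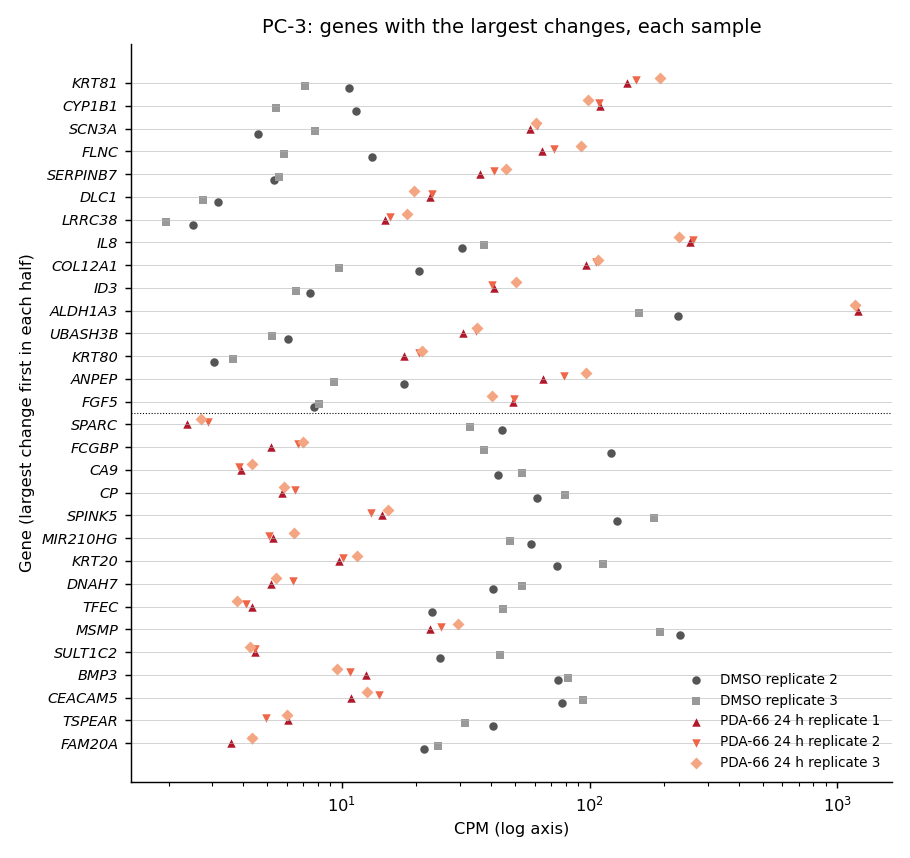
CPM on a log axis in each of the 5 samples (grey symbols for the controls, red to orange symbols for PDA-66 24 h) for the 15 genes with the largest increases, above the dotted line, and the 15 with the largest decreases, below it. The groups are apart in every gene, and FCGBP shows the widest gap between the controls (122 and 37.4 CPM).

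Groups of genes were described by how many members passed the test and by their median, beside 8.88% higher, 10.5% lower and a median of -0.01 for all genes tested. The mRNAs for proteins of the cytosolic ribosome and for several factors of translation share a start that makes their translation depend on growth signalling through mTOR. This start, the TOP motif, is a C at the first base followed by an unbroken run of pyrimidines. Of 76 ribosomal protein genes tested, 69 were lower and 0 higher, with a median log2 fold change of -1.01. Their counts together were 64965 and 83038 CPM in the controls and 35098, 37024 and 39332 CPM after PDA-66, so that the PDA-66 samples were near each other and the controls apart. RPL13A went from 495 and 681 CPM to 140.4, 149 and 159 CPM, which is a log2 fold change of -1.97 (SE 0.12, adjusted p = 1.29e-07). RPL13 (-1.26), RPL15 (-1.24) and RPL23 (-1.24) of the large subunit fell as well, and RPL3, at the center of that subunit, changed by -1.19. Of the small subunit, RPS24 changed by -1.15 and RPS6, the substrate of S6 kinase, by -1.03. Between 60 and 73 of the 76 genes were lower over the fits that each left out 1 sample, with a median between -1.18 and -0.78.

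To show the start that these genes share, the bases around it are given from the RefSeq promoter table (GRCh38.p14), with 10 bases before and 14 from the first base on, and with the run of pyrimidines at the start in capitals. The names stand with the strand and position of the printed bases.
RPL13A (chr19:49487598-49487621, plus strand): aaacctcctcCTTTTCCaagcggc
RPS24 (chr10:78033853-78033876, plus strand): aatcgtggttCTCTTTTCCTCCTT
RPS6 (chr9:19380223-19380246, minus strand): gaagttggccCTCTTTTCCgtggc
EEF1A1 (chr6:73521019-73521042, minus strand): cgtgaacgttCTTTTTCgcaacgg
EEF2 (chr19:3985450-3985473, minus strand): cgtcagcgttCTCTTCCgccgtcg
TPT1 (chr13:45341170-45341193, minus strand): ctgagtcggcCTTTTCCgcccgct
SNHG5 (chr6:85678720-85678743, minus strand): gcacttcggtCTTTTacgtcggcc
The run was 7 bases in RPL13A, EEF1A1, EEF2 and TPT1, 9 in RPS6 and 5 in the host gene SNHG5, and it filled all 14 bases in RPS24. A C followed by at least 4 pyrimidines stood at the start of 41 of the 61 ribosomal protein genes in the promoter table (67.2%), compared with 4.04% of all 27305 genes in that table and 5.47% of the 10805 of its genes that were tested. The median log2 fold change was -1.04 for the ribosomal protein genes with this run and -0.96 for those with a start in the table but without it. Outside the lists of ribosomal proteins, host genes, histones and translation factors, 533 tested genes had the run. Of these, 72 were lower and 36 higher, with a median of -0.10, compared with 0.03 for such genes without the run. The share was 12.7% for 63 genes of oxidative phosphorylation and 7.35% for 68 genes of the mitochondrial ribosome. A listed start is a description of 1 annotated position per gene, and no use of the start was measured in these cells.

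Factors of translation were lower as well. Of 21 genes chosen as known to have such mRNAs, 19 were lower and 0 higher, with a median log2 fold change of -0.80, and this list was put together after the ribosomal genes had been seen. A start was in the promoter table for 14 of them, of which 12 had the run of pyrimidines. EEF1A1, the elongation factor that brings aminoacyl-tRNA to the ribosome, was at 5035 and 5555 CPM in the controls and at 2454, 2611 and 2765 CPM after PDA-66 (log2 fold change -1.02, SE 0.10, adjusted p = 3.77e-06). EEF2, which moves the ribosome along the mRNA, changed by -0.99. TPT1, a growth-related protein with a strong TOP motif, changed by -1.40 and the initiation factor EIF4B by -1.18. Of 30 genes of ribosome biogenesis in the nucleolus, 1 was higher and 0 were lower (median 0.17), with 5 higher without DMSO replicate 2 and 4 without DMSO replicate 3, and of 76 genes of the mitochondrial ribosome, 2 were higher and 1 lower (median 0.00).

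Transcript length moved with the fold change over all genes. In the fifth of the genes with the shortest transcripts (up to 1791 nt), the median log2 fold change was -0.18, and it was 0.13 in the fifth with the longest (from 5793 nt). Ribosomal protein genes are short, with a median of 827 nt. The 79 genes of oxidative phosphorylation, the mitochondrial chain that makes ATP, were as short (median 783.5 nt), and of these 1 was higher and 3 were lower, with a median of -0.07. The factors of translation had a median length of 2861 nt. After a correction of every sample for transcript length and GC content, added after seeing the data, 63 ribosomal protein genes were lower and 0 higher, with a median of -0.71. With this correction 19 genes of oxidative phosphorylation, 16 of the mitochondrial ribosome and 6 of ribosome biogenesis were higher. Without DMSO replicate 2, 14 genes of oxidative phosphorylation were lower.

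**Figure D3:**
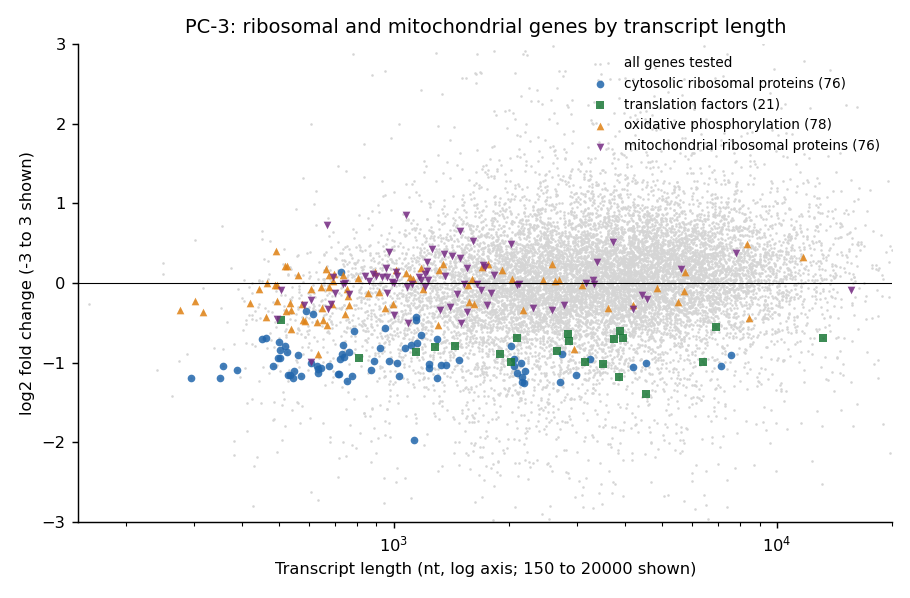
Log2 fold change of PDA-66 24 h against DMSO by transcript length in nt on a log axis, with all genes tested in grey and colored symbols for proteins of the cytosolic ribosome, factors of translation, oxidative phosphorylation and the mitochondrial ribosome. The cytosolic ribosome (median -1.01) lies below oxidative phosphorylation (median -0.07) at a like transcript length.

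Host genes of small nucleolar RNAs were lower in 10 of 16 cases and higher in 0 (median -0.98). The run of pyrimidines stood at the start of 4 of the 13 in the promoter table (30.8%), SNHG5 among them, and the median log2 fold change was -1.06 with the run and -1.03 without it. GAS5, a lncRNA that accumulates when growth stops in other cells, was at 69.1 and 116 CPM in the controls and at 25.4, 28.2 and 26.9 CPM after PDA-66, a log2 fold change of -1.79. SNHG5 changed by -1.48. EPB41L4A-AS1 (-1.81), SNHG8 (-1.43) and ZFAS1 (-1.21) fell too, but genes on the opposite strand cover 51.2%, 37.6% and 33.4% of their exon bases. The number of lower host genes was 6 without PDA-66 replicate 1 or 3 and 7 without PDA-66 replicate 2 (13 and 7 without DMSO replicates 2 and 3). Over all 355 lncRNAs tested, 69 were lower and 4 higher, with a median of -0.49, compared with 1279 lower and 1213 higher of 12758 protein-coding genes.

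Histone genes that are transcribed in S phase make mRNAs that mostly end in a stem-loop in place of a poly(A) tail, so that libraries selected for poly(A), as these were, show only a small part of them. Of 26 such genes tested, 11 were lower and 0 higher, with a median log2 fold change of -1.04. HIST2H2BE was at 66.2 and 74.5 CPM in the controls and at 19.9, 20.05 and 18.3 CPM after PDA-66 (log2 fold change -1.86, SE 0.11, adjusted p = 1.07e-07). HIST3H2A changed by -1.97, HIST1H2AC by -1.79, the linker histone gene HIST1H1C by -1.30 and HIST1H2BK by -1.02. With the correction for length and GC content, or without PDA-66 replicate 1, 6 of these genes were lower, and without PDA-66 replicate 2 there were 7.

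**Figure D4:**
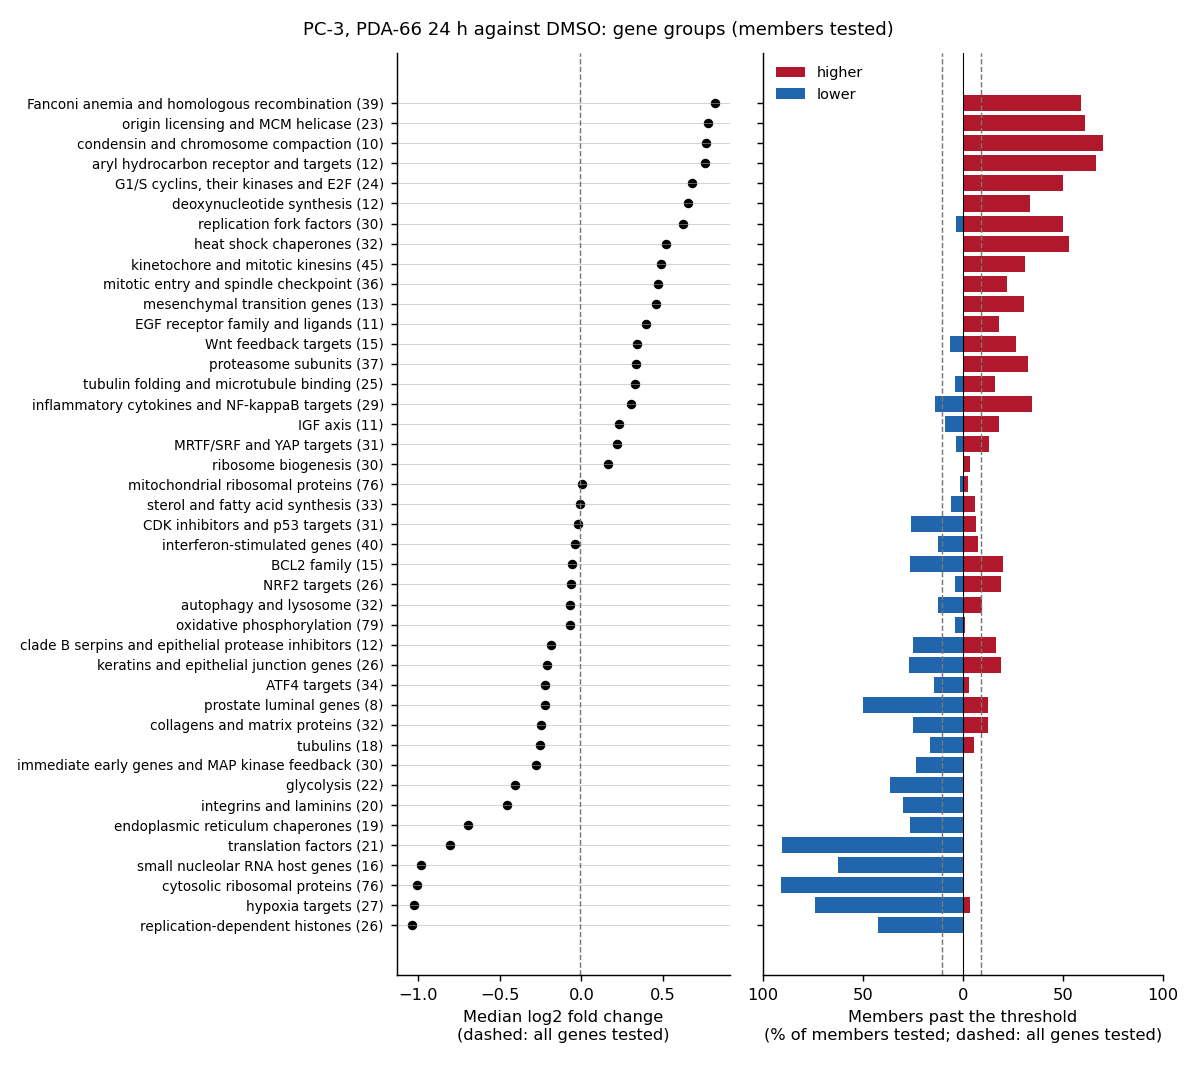
Median log2 fold change of each group of genes (left) and the share of its tested members that were higher (red) or lower (blue) at an adjusted p under 0.001 (right), with the number of members tested in brackets and dashed lines for all genes tested. Repair, replication and aryl hydrocarbon receptor genes lie at the top, and histones, hypoxia targets (20 of 27 lower) and cytosolic ribosomal proteins (69 of 76 lower) at the bottom.

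The response to hypoxia is driven by HIF transcription factors, which at low oxygen escape degradation and bind the core ACGTG in promoters of genes for glycolysis, angiogenesis and acid balance. Of 27 genes listed for this response, mostly such targets, 20 were lower and 1 was higher with PDA-66, with a median log2 fold change of -1.03. Besides CA9, ANGPTL4, which inhibits lipoprotein lipase, changed by -2.24, and the collagen prolyl hydroxylase P4HA1 by -1.73. BNIP3, a receptor for the removal of mitochondria, was at 280.2 and 315 CPM in the controls and at 92.7, 96.6 and 86.8 CPM after PDA-66, a log2 fold change of -1.69 (SE 0.10, adjusted p = 6.70e-08). PDK1, which keeps pyruvate out of the mitochondria, changed by -1.35, NDRG1 by -1.32 and the angiogenic growth factor gene VEGFA by -1.03. The exception was ARNT2, a partner of HIF, with 0.405 and 0.604 CPM in the controls and 2.02, 2.63 and 1.69 CPM after PDA-66. Its log2 fold change of 2.05 did not pass when any 1 of the 5 samples was left out, with an adjusted p of up to 0.00675 without DMSO replicate 2.

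Glycolysis shares part of these targets. Of its 22 genes, 8 were lower and 0 higher (median -0.41), and 5 were lower without PDA-66 replicate 1 or 2. SLC2A1, the glucose transporter GLUT1, was at 316 and 299 CPM in the controls and at 88.2, 98.6 and 108 CPM after PDA-66, a log2 fold change of -1.65. The aldolase ALDOC changed by -1.47, the enolase ENO2 by -1.20, the regulator PFKFB4 by -1.13 and PGK1 by -0.72. LDHA, lactate dehydrogenase A, had a smaller change of -0.56, which did not pass without PDA-66 replicate 1 (adjusted p = 0.00141), replicate 2 (0.00178) or replicate 3 (0.00102).

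The promoters of CA9 and ALDOC show the HIF core close to the start. The bases are 30 of the stretch before the start in GRCh38.p14 from the RefSeq table, 5′ to 3′ in the direction of the gene, with ACGTG or, on the other strand, CACGT in capitals.
CA9 (chr9:35673896-35673925, plus strand): tctcgtttccaatgCACGTacagcccgtac
ALDOC (chr17:28576906-28576935, minus strand): ccccggaggagtCACGTagctctgcgacat
ACGTG on either strand was found in the 250 bases before the start in 11 of 22 hypoxia targets (50%), compared with 18.7% of all promoters in the table, 23.2% of those of genes tested and 28% of those of lower genes. The table holds promoters for 10805 of the 13777 genes tested. A match of these letters is a description and no evidence of binding, and CACGTG, the E-box of other factors, holds the same core.

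The aryl hydrocarbon receptor is a ligand-activated transcription factor that binds the core GCGTG together with ARNT and turns on enzymes that oxidize foreign and planar aromatic compounds. Of 12 genes of this group, 8 were higher and 0 lower, with a median log2 fold change of 0.76. The number was 5 without PDA-66 replicate 2 or 3. CYP1B1 and ALDH1A3 are members of it. AHRR, the repressor that the receptor induces against itself, was at 6.35 and 2.48 CPM in the controls and at 19.5, 24.1 and 24.4 CPM after PDA-66, a log2 fold change of 2.36 (SE 0.26, adjusted p = 1.37e-05), and 3.19 without DMSO replicate 2. TIPARP, a poly(ADP-ribose) polymerase family member of the same feedback, rose from 101 and 89.7 CPM to 185, 188 and 164 CPM, a change of 0.91. ALDH3A1 rose by 0.98. CYP1A1, the best known target, was at 12.96 and 4.36 CPM in the controls and at 25.1, 23.6 and 25.0 CPM after PDA-66. The controls of CYP1A1 lay far apart, and its log2 fold change of 1.5 (SE 0.28, adjusted p = 0.000673) did not pass without PDA-66 replicate 1 (adjusted p = 0.00271), replicate 2 (0.00225) or replicate 3 (0.00409), whereas it was 2.50 without DMSO replicate 2 and 0.94 without DMSO replicate 3.

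The core of the receptor's site is shown for the promoters of CYP1A1 and AHRR, printed as above with GCGTG in capitals.
CYP1A1 (chr15:74725569-74725598, minus strand): tccagggaaggagGCGTGgccacacgtaca
AHRR (chr5:321669-321698, plus strand): cggggcgggcggctcGCGTGccggggtggg
GCGTG or CACGC was found in 6 of 10 promoters of the group (60%). It was found in 31.9% of all promoters, 45.3% of those of genes tested and 46.9% of those of higher genes. Over the other groups searched, the share ran from 21.1% (G1/S genes) to 55.6% (mitotic entry and targets of ATF4).

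Genes for the start of DNA replication were higher as a group. Origins are licensed when ORC and CDC6 load the MCM helicase, which GINS and CDC45 then activate. Of 23 such genes, 14 were higher and 0 lower, with a median log2 fold change of 0.78, and all 23 were above 0. MCM4, a helicase subunit, was at 89.3 and 78.1 CPM in the controls and at 196, 179.6 and 169.5 CPM after PDA-66 (log2 fold change 1.12, SE 0.10, adjusted p = 3.25e-06). MCM10 and GINS4, which act at the step of activation, both rose by 1.45, from 12.96 and 13.3 CPM to 38.1, 37.3 and 32.5 CPM in the case of MCM10. ORC1 rose by 1.12, GINS2 by 0.95 and CDC6 by 0.89. Of 30 fork factors, 15 were higher and 1 lower (median 0.63), with 10 higher without PDA-66 replicate 2. The polymerase alpha subunits POLA2 (1.39) and POLA1 (1.27), the chromatin assembly factor CHAF1B (1.30) and the polymerase delta subunit POLD3 (1.17) rose. POLD4, the small subunit of polymerase delta, was the exception and fell from 73.3 and 99.1 CPM to 35.7, 41.4 and 46.0 CPM, a log2 fold change of -1.07.

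Deoxynucleotide synthesis feeds the fork. RRM2, the regulated subunit of ribonucleotide reductase, was at 201 and 159 CPM in the controls and at 615, 536 and 442 CPM after PDA-66, a log2 fold change of 1.56 (SE 0.14, adjusted p = 2.94e-06). RRM1, the other subunit, rose by 1.31, and TYMS, thymidylate synthase, by 1.23, although ENOSF1 on the opposite strand covers 39.9% of the exon bases of TYMS. In all, 4 of 12 genes of this group were higher and 0 lower. Of 39 genes of the Fanconi anemia pathway and homologous recombination, which repair crosslinks and broken forks, 23 were higher and 0 lower, with a median of 0.82. BRCA2, a core factor of homologous recombination, was at 15.9 and 14.7 CPM in the controls and at 45.1, 36.2 and 31.5 CPM after PDA-66 (log2 fold change 1.30). RAD54B rose by 1.5, the checkpoint mediator CLSPN by 1.35, the nuclease scaffold SLX4 by 1.25, RAD54L by 1.13, the kinase gene CHEK1 by 1.12, FANCI by 1.10 and BRCA1 by 0.95, with LRRC41 on the opposite strand over 19.9% of the exon bases of RAD54L. The range over fits without 1 sample was 18 to 24 genes.

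Genes that control the step from G1 into S phase, in either direction, were higher in 12 of 24 cases and lower in 0 (median 0.68). Of the 24, 17 were above 0 and 7 below. MYBL2, a transcription factor for S and G2 genes, was at 80.0 and 81.6 CPM in the controls and at 254, 226 and 239 CPM after PDA-66, a log2 fold change of 1.57 (SE 0.10, adjusted p = 1.36e-07). SKP2, which marks p27 for degradation, rose by 1.5, the phosphatase CDC25A by 1.10, RBL1 by 1.15, cyclin A2 (CCNA2) by 1.01 and CDK2 by 0.84. Of the CDK inhibitors, CDKN2A, CDKN2B, CDKN2C and CDKN1B were lower and CDKN1A was higher. CDKN2B, the p15 inhibitor of CDK4 and CDK6, was at 249 and 312 CPM in the controls and at 65.3, 68.9 and 63.2 CPM after PDA-66, a log2 fold change of -2.09 (SE 0.11, adjusted p = 2.97e-08). CDKN2A changed by -1.42 and CDKN1B by -0.69, which did not pass with only the 2 groups in the fit (adjusted p = 0.00156). CDKN2C changed by -0.49, which did not pass without DMSO replicate 3 or any PDA-66 replicate, with an adjusted p of up to 0.00498 without PDA-66 replicate 2. CDKN2B-AS1 covers 15.3% of the exon bases of CDKN2A on the opposite strand. CDKN1A, which encodes p21, was higher at 71.2, 75.1 and 79.5 CPM, compared with 49.7 and 38.5 CPM in the controls (log2 fold change 0.77), and did not pass without PDA-66 replicate 2 (adjusted p = 0.00107). PC-3 is known to lack functional p53, and of 31 CDK inhibitors and p53 targets, 2 were higher and 8 lower. The number of higher genes was 4 without DMSO replicate 3, 1 without DMSO replicate 2 and 0 without PDA-66 replicate 2.

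**Figure D5:**
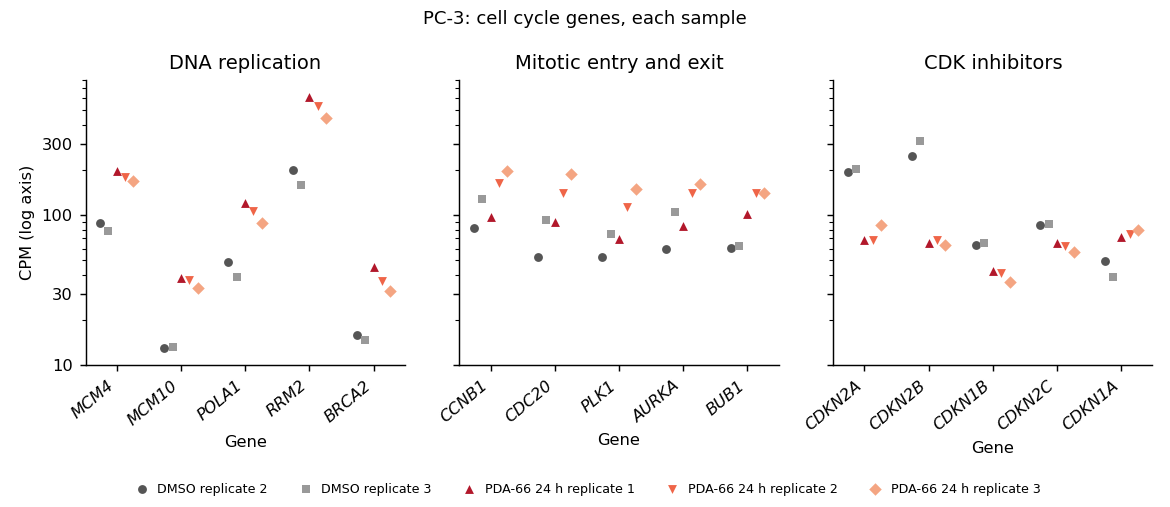
CPM on a log axis in each of the 5 samples (grey for the controls, red to orange for PDA-66 24 h) for genes of DNA replication, mitotic entry and exit, and CDK inhibitors. The groups are apart for the replication genes, whereas CCNB1, CDC20, PLK1 and AURKA overlap between the groups and differ among the PDA-66 replicates (CCNB1 at 97.5, 163 and 196 CPM).

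Of 36 genes of mitotic entry and the spindle checkpoint, 8 were higher and 0 lower with a median of 0.47, and 12 were higher without DMSO replicate 3. FOXM1, the transcription factor for G2 and M genes, rose from 77.7 and 71.2 CPM to 164, 165 and 183 CPM (log2 fold change 1.2), and ITFG2 covers 15.9% of its exon bases on the opposite strand. The checkpoint kinase BUB1 rose by 1.06, from 60.4 and 62.4 CPM to 102, 140.3 and 141 CPM. PKMYT1, an inhibitory kinase of CDK1, rose by 1.06 and the separase gene ESPL1 by 0.80. MAD2L2, which is not the checkpoint gene MAD2 (MAD2L1), rose by 0.87. Opposite genes cover 24.7% of the exon bases of PKMYT1 and 16.1% of those of MAD2L2.

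Genes that peak in mitosis varied among the treated samples. CCNB1, cyclin B1, was at 82.2 and 128 CPM in the controls and at 97.5, 163 and 196 CPM after PDA-66, a log2 fold change of 0.53 (SE 0.24, adjusted p = 0.0784). CDC20, the activator of the anaphase-promoting complex, was at 52.7 and 92.3 CPM compared with 90.1, 142 and 188 CPM (0.95, adjusted p = 0.00835). PLK1 was at 52.9 and 75.1 CPM compared with 69.8, 113 and 148 CPM (0.79, adjusted p = 0.0149), and AURKA at 59.96 and 104 CPM compared with 84.95, 141 and 160.4 CPM (0.65, adjusted p = 0.0386). In each of these 4 genes PDA-66 replicate 1 was lowest and replicate 3 highest of the PDA-66 samples, and the groups overlapped. Without PDA-66 replicate 1, CDC20 (adjusted p = 0.000974) and PLK1 (adjusted p = 0.00062) passed. CDK1 had the opposite order, with 354, 292 and 231 CPM after PDA-66 and 204 and 242 CPM in the controls (0.39, adjusted p = 0.0512). BUB1B, the gene of the checkpoint kinase BUBR1, did not overlap (52.2 and 58.2 CPM compared with 74.3, 79.3 and 77.7 CPM), and its log2 fold change of 0.48 had an adjusted p of 0.00105, and 0.000403 without DMSO replicate 3.

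The kinetochore links chromosomes to spindle microtubules, and condensin compacts them. Of 45 kinetochore and mitotic kinesin genes, 14 were higher and 0 lower (median 0.49). CENPI, of the inner kinetochore, was at 15.7 and 13.5 CPM in the controls and at 51.4, 48.2 and 43.2 CPM after PDA-66, a log2 fold change of 1.71 (SE 0.12, adjusted p = 3.20e-07). CASC5, also known as KNL1, rose by 1.49 (2.09 without DMSO replicate 2), the NDC80 complex subunit SPC25 by 1.38 and SKA3, which tracks microtubule ends, by 1.33. Of 10 genes of chromosome compaction, 7 were higher and 0 lower, among them MKI67 (1.06), NCAPD3 (1.02), NCAPG2 (0.95) and NCAPG (0.85), where LCORL covers 33.7% of the exon bases of NCAPG.

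Elements known from promoters of cell cycle genes are the site of E2F (TTCCCGC) and the cell cycle homology region (CHR, TTTGAA). Examples are printed as above, with the element or its reverse complement in capitals.
GINS2 (chr16:85688970-85688999, minus strand): gggctctcgccgtgGCGGGAAaacggcggc
RAD54L (chr1:46247628-46247657, plus strand): gcgcagcactaTTCCCGCctcttccttggg
ESPL1 (chr12:53268255-53268284, plus strand): gcagccgcggataTTTGAAaggagggtctg
NCAPG (chr4:17810931-17810960, plus strand): ctcgcgggaattaTTTGAAcgttcgagcgg
MKI67 (chr10:128126447-128126476, minus strand): ccagaaTTTGAAtcttcgttttcgTTTGAA
The E2F letters were found on either strand in 9 of 26 promoters of fork factors (34.6%) and 6 of 20 of origin licensing (30%), compared with 5.59% of all promoters and 8.88% of those of genes tested. They were also in 7 of 40 promoters of kinetochore genes and kinesins (17.5%) and 1 of 9 of chromosome compaction (11.1%). TTTGAA was found in 5 of 9 promoters of chromosome compaction (55.6%) and 10 of 40 of kinetochore genes and kinesins (25%), compared with 13.6% of all promoters, 8.49% of those of genes tested and 0 of the 26 fork factors. In 2 groups, fewer than 80% of the members were in the promoter table, G1/S genes (79.2%) and mitotic entry (75%). The E2F letters were in 1 of 19 promoters of G1/S genes (5.26%) and 5 of 27 of mitotic entry (18.5%). TTTGAA was in 1 of 19 (5.26%) and 11 of 27 (40.7%).

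Tubulin is the target of compounds that act on microtubules, and cells are known to degrade tubulin mRNAs when free tubulin rises. Of 18 tubulin genes, 3 were lower and 1 was higher, with a median log2 fold change of -0.25. These are 22.2% of the group, near the 19.3% of all genes tested, and degradation of tubulin mRNA was not tested. Their counts together were 4261 and 3713 CPM in the controls and 2860, 2672 and 2976 CPM after PDA-66. TUBA1A, an alpha tubulin, was at 177 and 155 CPM in the controls and at 63.3, 68.02 and 75.8 CPM after PDA-66, a log2 fold change of -1.27 (SE 0.11, adjusted p = 2.03e-06). The beta tubulins TUBB4B (-0.78) and TUBB (-0.73) fell as well, TUBB from 1262 and 1068 CPM to 720.2, 687 and 700.3 CPM. Tubulin genes are close paralogs, so that reads could be split among them. Of 25 genes of tubulin folding and microtubule binding, 4 were higher and 1 lower (20%, near the 19.3% of all genes tested). Without PDA-66 replicate 1 or 2, 1 of these genes was higher. MAP1A, a microtubule-associated protein of neurons, rose by 2.20 from 4.39 and 3.35 CPM to 18.4, 17.1 and 17.9 CPM. TBCC, a cofactor of tubulin folding, changed by -0.76.

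Of 32 heat shock chaperones and their partners, cytosolic apart from the mitochondrial HSPD1 and HSPE1, 17 were higher and 0 lower (median 0.52), and 13 to 19 were higher over fits without 1 sample. HSPH1, a nucleotide exchange factor of HSP70, was at 109.6 and 104 CPM in the controls and at 275, 306 and 294 CPM after PDA-66, a log2 fold change of 1.45 (SE 0.10, adjusted p = 1.98e-07). The HSP90 partner CHORDC1 rose by 1.51, HSPB8 by 1.41, HSPA4L by 1.19, HSP90AA1 by 0.79, the chaperonin subunit TCP1 by 0.79 and the mitochondrial chaperonin HSPD1 by 0.66. HSPD1 did not pass with only the 2 groups in the fit (adjusted p = 0.00112), nor HSPB8 with limma voom (0.00365). HSPA1A, the stress-inducible HSP70, was at 29.8 and 28.3 CPM in the controls and at 24.1, 25.7 and 26.9 CPM after PDA-66 (log2 fold change -0.19, adjusted p = 0.151), with a near-identical copy in the genome. The heat shock element core GAANNTTC stood in 9 of 29 promoters of this group (31%). It stood in 5.85% of all promoters and in 4.05% of those of genes tested. Over the other groups searched, the share ran from 0% (fork factors among others) to 44.4% (4 of 9 promoters of chromosome compaction). Proteasome subunits, a list added after seeing the data, were higher in 12 of 37 cases and lower in 0 (median 0.34), with 6 higher without PDA-66 replicate 2, 7 without PDA-66 replicate 1 and 28 after the correction for length and GC content. PSMD2 (1.07), PSMD1 (1.04), PSMC3 (0.82), PSMD14 (0.73) and PSMD11 (0.64) were among them, and PSMD11 did not pass with only the 2 groups in the fit (adjusted p = 0.001015).

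In the endoplasmic reticulum, all 19 chaperone and quality control genes were below 0, but only 5 passed. The controls differed here, with 11932 and 5817 CPM for the group together, compared with 4455, 4836 and 4834 CPM after PDA-66. HSP90B1 was at 2802 and 1242 CPM in the controls and at 699, 781 and 713 CPM after PDA-66 (log2 fold change -1.47). It was -0.76 without DMSO replicate 2 and did not pass without PDA-66 replicate 1 (adjusted p = 0.00121) or replicate 3 (0.00219). HSPA5, the chaperone BiP, was at 1902 and 881 CPM compared with 597, 684 and 681 CPM (-1.09, adjusted p = 0.00102), and -0.42 without DMSO replicate 2. Without DMSO replicate 3, which had the lower level, 15 genes of the group were lower and HSPA5 passed (-1.52). EDEM1 (-1.27), DNAJB9 (-1.04) and HERPUD1 (-0.97), genes of the unfolded protein response, passed. Of 34 targets of ATF4, the factor of the integrated stress response, 5 were lower and 1 higher (17.6%, below the 19.3% of all genes tested). The number of lower ATF4 targets was 1, 2 and 3 without PDA-66 replicates 1, 2 and 3. DDIT4, an inhibitor of mTOR, was at 62.5 and 79.3 CPM in the controls and at 29.3, 36.1 and 34.02 CPM after PDA-66 (-1.10). MAT2A, which makes S-adenosylmethionine, was chosen after its values were seen: the controls were at 655 and 2069 CPM and the PDA-66 samples at 259, 263 and 268 CPM. Its log2 fold change of -2.37 was -2.97 without DMSO replicate 2 and -1.30 without DMSO replicate 3.

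Of 29 inflammatory cytokines and NF-kappaB targets, 10 were higher and 4 lower (median 0.30), with 1 lower without PDA-66 replicate 1 or 2 and 2 lower without DMSO replicate 3 or PDA-66 replicate 3. Besides IL8, the chemokines CXCL6 and CXCL1 rose by 2.57 and 2.42, CXCL1 from 1.22 and 1.07 CPM to 6.58, 6.11 and 5.82 CPM. TNFAIP3, the A20 inhibitor of NF-kappaB, was at 2.90 and 3.02 CPM in the controls and at 14.6, 16.6 and 19.8 CPM after PDA-66, a log2 fold change of 2.52 (SE 0.18, adjusted p = 4.38e-07). IL11 (1.54), IL1B (1.44) and the urokinase gene PLAU (0.86) rose too, with C10orf55 over 31% of the exon bases of PLAU. CXCL1 (adjusted p = 0.00454), IL11 (0.00758) and IL24 (0.016) did not pass with limma voom. IL24 rose from 0.135 and 0.402 CPM to 2.49, 3.18 and 3.45 CPM (3.45), did not pass without DMSO replicate 2 (adjusted p = 0.00116), was 4.43 without DMSO replicate 3 and shares 41.6% of its exon bases with FAIM3 on the opposite strand. ICAM1, an adhesion molecule and NF-kappaB target, was lower, with 212 and 206 CPM in the controls and 90.4, 103 and 122 CPM after PDA-66 (-0.99). Of 40 interferon-stimulated genes (median -0.04), 20% passed, near the 19.3% of all genes tested. These were 3 higher and 5 lower, with IRF1 at -1.02. Those counts moved to 7 and 3 without DMSO replicate 2, to 0 higher without DMSO replicate 3, to 0 and 3 without PDA-66 replicate 1 and to 0 and 1 without PDA-66 replicate 2.

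Growth factor signalling genes moved in both directions. EGFR was at 39.2 and 16.03 CPM in the controls and at 85.01, 86.8 and 89.4 CPM after PDA-66, a log2 fold change of 1.66 (SE 0.25, adjusted p = 0.000137), which was 2.45 without DMSO replicate 2 and did not pass without PDA-66 replicate 3 (adjusted p = 0.00129). AXL, a receptor tyrosine kinase, rose from 39.8 and 31.9 CPM to 143, 151 and 168 CPM (2.10). Of 11 genes of the EGF receptor family and its ligands, 2 were higher and 0 lower (18.2%, near the 19.3% of all genes tested). When any 1 PDA-66 replicate was left out, 1 of these genes was higher. Of 11 genes of the IGF axis, 2 were higher, the binding proteins IGFBP3 (1.66) and IGFBP4 (1.53), and 1 was lower. Of 30 immediate early genes and feedback genes of the MAP kinase pathway, 7 were lower and 0 higher (median -0.28), with 13 lower without DMSO replicate 2 and 3 higher without DMSO replicate 3. FOS, which is induced within minutes of a stimulus, was at 48.3 and 132 CPM in the controls and at 13.3, 14.4 and 23.1 CPM after PDA-66, a log2 fold change of -2.42, and -1.51 without DMSO replicate 3. JUNB (-0.99) and the ERK phosphatase DUSP6 (-0.80) fell. In the BCL2 family, which sets the threshold for apoptosis, 3 of 15 genes were higher and 4 lower. MCL1, a short-lived survival protein, was at 389 and 425 CPM in the controls and at 187, 196 and 188 CPM after PDA-66, a log2 fold change of -1.10 (SE 0.09, adjusted p = 1.03e-06). BBC3, the p53 target PUMA, changed by -1.62 and BCL2A1, a survival protein induced by NF-kappaB, by 2.87 (3.45 without DMSO replicate 3), which did not pass with limma voom (adjusted p = 0.00192). TP53INP1, which is outside the BCL2 family, changed by -1.87. The number of higher genes in the BCL2 family was 1 to 2 and of lower genes 2 to 4 over the fits without 1 sample, with the fewest (1 and 2) without PDA-66 replicate 2.

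Besides KRT81, the hair keratins KRT83 (3.74), KRT34 (2.63) and KRT86 (2.44) rose from low levels, KRT86 from 0.540 and 0.469 CPM to 2.55, 2.57 and 3.25 CPM. KRT83 and KRT86 are close paralogs of KRT81, and the value of KRT83 rests on 0.405 and 0 CPM in the controls. It was 2.78 without DMSO replicate 3 and 8.50 without DMSO replicate 2, where the control left is at 0 and the fitted value is no bound. KRT83 (adjusted p = 0.00401) and KRT86 (0.0167) did not pass with limma voom. KRT34 rose by 1.93 without DMSO replicate 2 and by 4.08 without DMSO replicate 3. KRT15, a keratin of basal epithelium, fell from 44.2 and 40.4 CPM to 8.60, 9.78 and 12.2 CPM (-2.05). CDH1, E-cadherin of epithelial junctions, was at 8.37 and 3.76 CPM in the controls and at 1.48, 1.10 and 1.42 CPM after PDA-66 (-2.18). It changed by -1.48 without DMSO replicate 2 and did not pass without PDA-66 replicate 3 (adjusted p = 0.00113). CDH2, N-cadherin, rose by 0.95 and the repressor SNAI2 by 1.10. Of 13 mesenchymal transition genes, 4 were higher and 0 lower, and of 26 keratin and junction genes, 5 were higher and 7 lower (8 higher without DMSO replicate 2 and 4 lower without PDA-66 replicate 2). HOXB13 fell from 811 and 751 CPM to 426, 408 and 451 CPM (-0.87), and ACPP, prostatic acid phosphatase, changed by -2.45. FKBP5 rose by 0.90. These belong to 8 prostate luminal genes, of which 1 was higher and 4 lower, with 3 lower when either control and 2 when any 1 PDA-66 replicate was left out.

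In the matrix, 4 of 32 collagens and matrix proteins were higher and 8 lower, with 7 higher without DMSO replicate 2 and 5 lower without PDA-66 replicate 1 or 2. COL5A2 was at 647 and 769 CPM in the controls and at 216, 241 and 264 CPM after PDA-66 (log2 fold change -1.56, SE 0.11, adjusted p = 2.72e-07), and COL1A2 changed by -1.97. COL6A3 (1.88), the microfibril protein FBN2 (1.87) and tenascin C (TNC, 1.54) rose, with COL6A3 not past the threshold with limma voom (adjusted p = 0.00313). Of 20 integrins and laminins, 6 were lower and 0 higher, with 14 lower without DMSO replicate 3 and 2 and 3 without PDA-66 replicates 1 and 2. LAMA4 changed by -1.91 and ITGB8 by -1.13. Of the targets of SRF and YAP, which respond to the cytoskeleton, 4 of 31 were higher and 1 lower. These are 16.1% of the group, below the 19.3% of all genes tested. The matrix glycoprotein gene THBS1 rose by 1.13. Of 12 clade B serpins and epithelial protease inhibitors, 2 were higher and 3 lower, with SERPINB2 at 1.49 and SERPINB1 at -1.56. Of 15 Wnt genes, 4 were higher and 1 lower, with WNT7B at 1.62 and the effector TCF7L2 at -1.04, and 2 were higher and 2 lower without DMSO replicate 3. KDR, a receptor for VEGF, fell from 163 and 126 CPM to 38.6, 41.7 and 41.5 CPM (-1.83). Of the targets of NRF2, 5 of 26 were higher and 1 lower (23.1%, near the 19.3% of all genes tested), with 3 higher without PDA-66 replicate 2. TXNRD1, thioredoxin reductase, rose by 1.11 and GCLM, of glutathione synthesis, by 0.92, and the transporter ABCC3 fell by 1.97. Of 33 genes of sterol and fatty acid synthesis, 12.1% passed, below the 19.3% of all genes tested. These were 2 higher and 2 lower, with the regulator SREBF1 at -1.07. Those counts were 5 and 3 without DMSO replicate 2 and 1 and 5 without DMSO replicate 3. Of 32 genes of autophagy and the lysosome, 3 were higher and 4 lower (21.9%, near the 19.3% of all genes tested). Those counts were 2 and 2 without PDA-66 replicate 1, 1 and 2 without replicate 2 and 1 and 4 without replicate 3. Of 4 metallothioneins, which bind zinc and copper, 0 passed (all 4 below 0), with 2 lower without DMSO replicate 2.

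The 24 h group was at last compared with the 12 h group, and the same controls serve both fold changes. These controls were taken after 24 h, and there was no 12 h control. Time in culture and time with PDA-66 therefore cannot be told apart in these differences. In the direct test between the times, the controls have no weight in the fold change and enter only through the shared filter, scaling and estimate of the spread. Between 24 h and 12 h, 194 genes differed (1.41% of the genes tested), of which 113 were among the DEGs of 24 h. That number was 63 to 79 when a PDA-66 24 h sample was left out, 500 without DMSO replicate 2 and 497 without DMSO replicate 3. KRT81 had a log2 fold change against DMSO of 6.12 after 12 h and 4.18 after 24 h, with a difference of -1.93 (SE 0.13, adjusted p = 3.45e-06). HSPA1A was 1.52 above the controls after 12 h and -0.19 after 24 h, and the difference of -1.70 had an adjusted p of 4.44e-07. CA9 was at -5.43 and -3.58, a difference of 1.85 (adjusted p = 8.43e-05). RPL13A had -2.08 after 12 h and -1.97 after 24 h (difference 0.11, SE 0.11, adjusted p = 0.601), and CYP1B1 had 3.67 and 3.66 (difference -0.01, SE 0.15, adjusted p = 0.983). For ALDH3A1 the values were -0.13 after 12 h and 0.98 after 24 h (difference 1.12, adjusted p = 7.20e-05).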

How the data were processed

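Poly(A) RNA was sequenced as single reads. Per the labels and the study's methods, the authors aligned human reads to hg19 with STAR (2.3.1s) and deposited unnormalized read counts per RefSeq gene. The use of strand and of reads matching several genes is not given in the sources used here. The counts of 2 control, 3 PDA-66 12 h and 3 PDA-66 24 h PC-3 samples were filtered with filterByExpr, scaled by TMM and fitted in 1 model with edgeR's quasi-likelihood test (edgeR 4.0.16, R 4.3.3), with Benjamini-Hochberg adjustment and a threshold of 0.001. A further control, set aside by the study, was not analysed here. Total counts of 14650839 to 16326495 limit precision for genes of low counts. Gene models were those of GRCh37, and promoters and starts those of GRCh38.p14 from RefSeq.

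Members and gene lists were chosen with earlier results of these data known, and lists of translation factors, mitochondrial ribosomal proteins and proteasome subunits were added after seeing the data. Named genes were the 15 with the largest increase and decrease among DEGs of at least 10 CPM without overlap, and members of each list with large changes or a defining role. On simulated counts, 72 of 99 genes with an absolute log2 fold change of 1 and 92 of 98 with 2 were found among 13609 genes, with 0 false calls. In it, all samples of a gene were drawn with the same spread, few genes were changed and the 12 h group was left unchanged. The wider gap between the controls of these data was not simulated, so false calls in these data remain unknown. Alternatives were DESeq2 (1.42.0), limma voom (3.58.1), other scalings and filters, a likelihood ratio test, a fit without the 12 h samples, a replicate block, fits without 1 sample and a correction for length and GC content (spline with 4 degrees of freedom). Some genes are not reported here.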

Additional observations from a re-analysis of the deposited data

Results flagged for a closer look

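For 27 of the named genes, the response after 24 h differed from that after 12 h in the direct test between the times, in which an adjusted p under 0.001 was required. Both responses are measured against the same controls, taken after 24 h, so time in culture and time with PDA-66 cannot be told apart. The log2 difference between 24 h and 12 h was negative, meaning lower expression after 24 h, for KRT81 (-1.93), SERPINB7 (-1.03), LRRC38 (-0.88), IL8 (-0.99), COL12A1 (-1.12), UBASH3B (-0.64), FGF5 (-0.68), HSPA1A (-1.70), TNFAIP3 (-1.01), IL11 (-1.16), KRT83 (-1.78), KRT86 (-1.95), CDH2 (-0.70), AXL (-0.78), IGFBP3 (-0.94), COL6A3 (-1.36) and SERPINB2 (-1.50). These 17 genes all had a positive log2 fold change against DMSO after 12 h. The difference was positive for CA9 (1.85), SPINK5 (1.32), BMP3 (1.58), TSPEAR (1.32), FAM20A (1.28), NDRG1 (0.74), ALDOC (0.80), HOXB13 (0.77), KDR (1.11) and ALDH3A1 (1.12). The first 9 of these 10 had a negative log2 fold change after both times, and ALDH3A1 had -0.13 after 12 h and 0.98 after 24 h.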

How the results depend on the processing

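The number of DEGs depended on the test more than on the scaling. Against 1223 higher and 1442 lower genes, the likelihood ratio test gave 1988 and 2230 and limma voom with sample quality weights 793 and 1175. Only the 2 groups compared gave 727 and 937, and the added correction for length and GC content 2033 and 1863. An adjusted p under 0.05 gave 3341 and 3532, and a log2 fold change of at least 1 gave 488 and 734. Without 1 sample, 706 to 1712 genes were higher and 845 to 1723 lower. With library sizes alone, 57.82% of the DEGs were higher, compared with 45.89% with TMM. The share was 52.18% with the correction for length and GC content and 51.02% without a filter, so the excess of lower genes depended on the setting. Between 24 h and 12 h, the 194 genes became 696 with the likelihood ratio test, 514 with DESeq2, 2320 with limma voom, 1390 at an adjusted p under 0.05, 88 with a log2 fold change of at least 1, and 63 to 500 without 1 sample. The causes were not tested. The 192 named genes changed sign in none of the 15 settings run. Of the 184 named DEGs, however, 10 did not pass with limma voom (ARNT2, CDKN2C, BCL2A1, CXCL1, IL11, IL24, KRT83, KRT86, HSPB8 and COL6A3), 6 with only the 2 groups (LDHA, CYP1A1, CDKN1B, CDKN2C, HSPD1 and PSMD11), 2 with the correction for length and GC content (ARNT2 and CDKN2C), 1 with DESeq2 (CYP1A1), 1 with library sizes alone and 1 without a filter (CDKN2C in both), and 2 to 7 without 1 sample. Low counts limit the values of KRT83, IL24, BCL2A1 and ARNT2, with 1 control of KRT83 at 0.

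Controls and 24 h samples share the replicate numbers 2 and 3. With a replicate block in a fit of the 2 groups, 708 genes were higher and 846 lower. Of the named DEGs, 12 did not pass with the block (LDHA, PGK1, CDK2, CDKN1B, CDKN2C, TUBB, TUBB4B, TBCC, HSPD1, PSMD11, PSMD14 and FKBP5). The deviations of same-numbered samples from their group means correlated at -0.06 for number 2 and -0.11 for number 3. Both values rest on the same difference between the controls, so they cannot decide whether the numbers pair the samples.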
